A study of Mus musculus with 40 samples.

Results

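The mature RNA of macrophages given a bacterial lipid for 4 hr was compared with that of untreated macrophages. The cells were mouse peritoneal macrophages of the inbred strains C57BL6/J and BALBc/J, drawn into the cavity by 3 ml of injected thioglycollate broth and washed out 4 days later. They adhered to culture dishes overnight in medium with serum, and non-adherent cells were then washed away. The treatment was 100 ng/ml Kdo2-lipid A (KLA) in fresh medium, and untreated cells, called notx in the labels, received fresh medium alone; the labels used here give no time that untreated cells spent in it. Both groups therefore share the elicitation, the adhesion step and the change of medium, and carry no engineered allele. The comparison rests on 4 RNA-Seq libraries of the 40 samples in the series, 1 for each strain with and without 4 hr of KLA, paired by strain. No label ties a library to its own animal or pool of animals. The p-values rest on the scatter left in all 6 RNA-Seq libraries, 2 of them after 1 hr of KLA, once treatment and strain are fitted. With 1 library per strain and time, that scatter is how far the strains differ in their response, and part of it may be technical. Of 22865 genes in the expression table, 10715 reached 20 tags, scaled to 10 M (mega) tags in each library, in at least 2 of the 6 RNA-Seq libraries (the 4 above and 2 after 1 hr of KLA) and make up the comparison; the other genes were left out. Some genes, such as Iigp1, Il12b and Cxcl9, had under 20 tags without treatment and at 1 hr. They entered only through the 4 hr libraries and could be called higher but not lower. Counts of called genes in the gene lists below are over tested members. Levels below are tags in exons per 10 M tags, not corrected for transcript length, and pairs of levels are always C57BL6/J first and BALBc/J second.

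KLA is the minimal lipid A part of lipopolysaccharide recognised by the Toll-like receptor TLR4 with its partner MD-2 and the co-receptor CD14. From the cell surface TLR4 signals through the adaptor MyD88 to NF-kB and the MAP kinases. From endosomes it signals through TRIF to the kinase TBK1 and the factor IRF3, which start interferon beta. Interferon beta is secreted, binds IFNAR on the same and neighbouring cells, and through STAT factors and IRF9 raises antiviral genes with a delay. In macrophages early cytokine RNAs, their inhibitors and this delayed interferon programme thus follow each other within hours.

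After 4 hr of KLA both strains held far more RNA of cytokines, chemokines and antiviral genes and less RNA of clock genes, autophagy genes and targets of FoxO factors. A change is the fitted difference in log2(tags + 10), given with its standard error, and a gene was called when limma's adjusted p was under 0.05 and the change at least 1, which is a factor of 2 on that scale. By this rule 864 genes (8.06% of the 10715) were higher and 2262 (21.1%) were lower, with adjusted p from 3.65e-07 to 0.0452, and every one of these had the same sign in both strains, as did 9188 of the 10715 genes tested; the calls were made from these same libraries. The tags of all genes sum to a fixed total in each library, and the median gene stood at -0.47. Measured relative to the median gene, 1250 genes (11.7%) were higher and 1023 (9.55%) lower, so the excess of lower genes turned into an excess of higher ones. Both treated libraries lay above both untreated libraries in 854 of the 864 higher genes, against 15.3% of all genes tested, and below them in 2235 of the 2262 lower genes, against 59.2% of all genes. For a called gene this separation was thus nearly fixed by the call. Where it is given for named genes below, it describes their levels and adds no support.

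**Figure D1:**
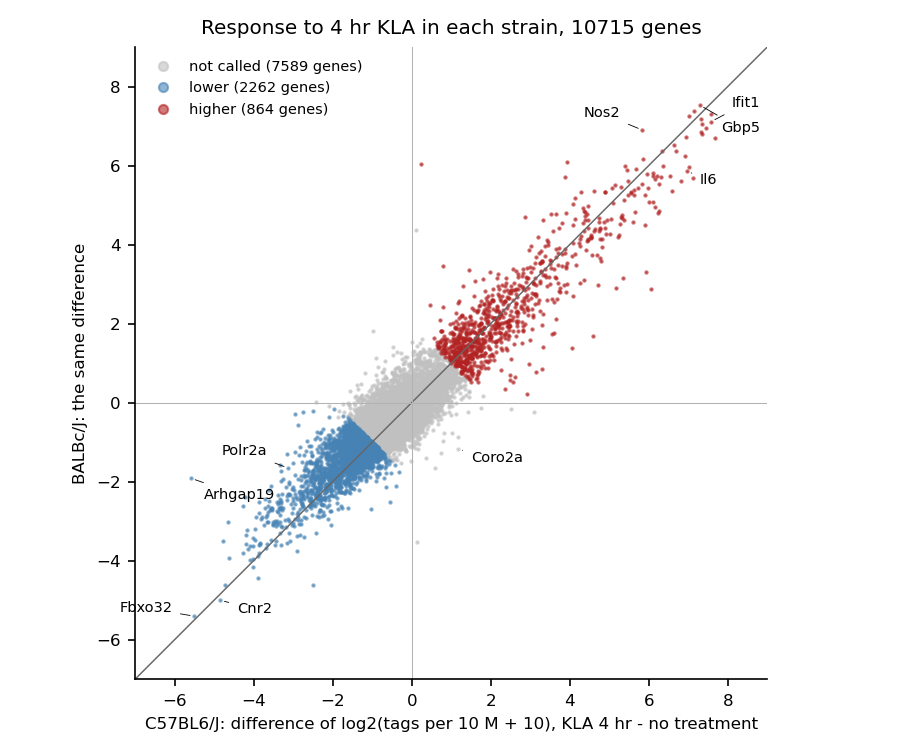
Change after 4 hr of KLA (difference in log2(tags per 10 M + 10) between treated and untreated library) in C57BL6/J on the horizontal axis and in BALBc/J on the vertical axis, 1 point per gene, for the 10715 genes tested. Genes called higher (864) and lower (2262) lie in the quadrants where both strains have the same sign, and Arhgap19, at -5.58 in C57BL6/J and -1.92 in BALBc/J, lies far from the diagonal of equal response.

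The genes called higher took 3.92 and 4.23% of exon tags without treatment, 10.6 and 11.6% after 1 hr, and 28.9 and 29.9% after 4 hr. The share of the lower genes went from 18.0 and 17.6% through 15.5 and 14.1% to 5.41 and 6.07%. The 30 genes with the largest increase alone went from 0.0659 and 0.0811% to 8.78 and 8.97%. Because these genes were chosen by the 4 hr change, the shares describe its size in tags and are not a test. Per kilobase of mRNA, Ccl4 was the 7th most abundant gene at 4 hr from a place of 1028 without treatment, Rsad2 was 9th from 1627, Ccl5 11th from 2048 and Cxcl10 14th from 2365. The 6 genes above Ccl4, among them the lysosomal Psap and Ctsd, were already among the 8 most abundant without treatment.

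**Figure D2:**
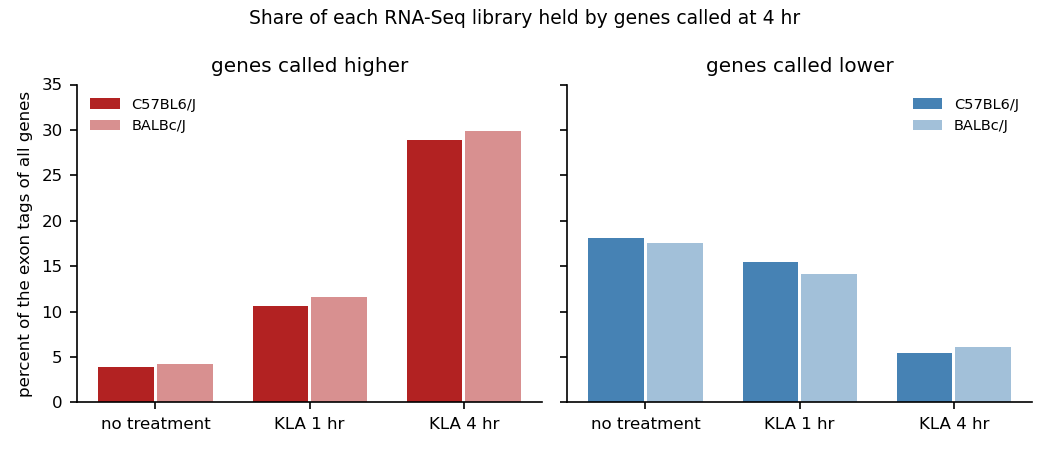
Percent of exon tags taken by the genes called higher and the genes called lower in each RNA-Seq library, by strain and time of KLA. The higher genes reach 28.9 and 29.9% at 4 hr, and the lower genes drop to 5.41 and 6.07%.

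Depth ranged from 17.0 to 20.3 M tags per library, and 88.7 to 90.6% of the tags fell in exons. All 12 macrophage markers were tested, with summed levels of 91322 and 96290 tags without treatment and 110140 and 103030 after 4 hr. The 18 markers of T and NK cells summed to 10658 and 12440 tags without treatment and to 3876 and 4987 after 4 hr, nearly all of it from Il7r, while the defining T cell genes Cd3d, Cd3e and Cd3g were each under 0.5 tags at 4 hr. B cell markers summed to 1289 and 1498 tags and then 558 and 774, mainly Cd22, neutrophil markers to 543 and 500 and then 638 and 507, mesothelial and fibroblast markers to 2972 and 4584 and then 1988 and 4336, eosinophil and mast cell markers to 169 and 167 and then 531 and 435, dendritic cell markers to 69.9 and 79.9 and then 124 and 156, and erythroid markers to at most 4.31. Of the 4 eosinophil and mast cell markers tested, 1 was called higher (4.13) and 1 lower (-1.24), with a median of -0.47. The higher sum of that list was thus not shared by its members. Fewer cells of a type and less RNA per cell cannot be told apart in such bulk samples, and the part of these other cells in the results was not tested.

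The starts of 6 strongly raised genes are printed with short DNA matches for factors of the TLR4 branches. They were chosen after their matches and values were seen, to show what such promoters look like; the bases are those directly before the RefSeq start (GRCm38.p6), 5′ to 3′ on the gene's strand. Capitals mark GAAANNGAA, the core of the element bound by IRF and STAT complexes, and GGANTTTCC, an NF-kB site, both read on either strand. Matches that overlap run together in 1 stretch of capitals.
Ifit1: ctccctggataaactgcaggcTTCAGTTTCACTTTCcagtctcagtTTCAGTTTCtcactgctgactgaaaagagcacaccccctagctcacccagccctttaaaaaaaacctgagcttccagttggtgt
Isg15: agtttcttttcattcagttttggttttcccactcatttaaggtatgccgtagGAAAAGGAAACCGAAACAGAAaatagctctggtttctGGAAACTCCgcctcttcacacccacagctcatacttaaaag
Gbp5: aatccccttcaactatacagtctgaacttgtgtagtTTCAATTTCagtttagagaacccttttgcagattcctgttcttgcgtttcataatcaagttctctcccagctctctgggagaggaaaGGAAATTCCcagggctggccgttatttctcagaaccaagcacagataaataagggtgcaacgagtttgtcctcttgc
Cxcl10: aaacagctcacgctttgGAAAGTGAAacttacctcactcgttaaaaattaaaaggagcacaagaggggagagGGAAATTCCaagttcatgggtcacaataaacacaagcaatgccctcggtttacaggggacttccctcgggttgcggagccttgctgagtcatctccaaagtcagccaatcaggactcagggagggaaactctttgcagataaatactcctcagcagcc
Il6: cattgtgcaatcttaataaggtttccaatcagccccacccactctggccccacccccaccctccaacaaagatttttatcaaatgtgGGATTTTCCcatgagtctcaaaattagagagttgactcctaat
Cxcl3: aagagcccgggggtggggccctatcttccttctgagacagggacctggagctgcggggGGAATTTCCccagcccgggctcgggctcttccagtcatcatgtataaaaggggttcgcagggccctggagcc
Ifit1 (chr19:34640759-34640888, plus strand) holds 3 matches of the IRF element, at 109 to 101, 103 to 95 and 84 to 76 bases before the start, the first pair overlapping. Isg15 (chr4:156200819-156200948, minus strand) has 3 overlapping ones between 78 and 58 bases and an NF-kB match at 41 to 33. Gbp5 (chr3:142496734-142496933, plus strand) and Cxcl10 (chr5:92348890-92349119, minus strand) each hold 1 of either kind, at 164 to 156 and 77 to 69 bases and at 213 to 205 and 158 to 150 bases. Il6 (chr5:30012984-30013113, plus strand) and Cxcl3 (chr5:90785971-90786100, plus strand) show only an NF-kB match in the printed bases, at 43 to 35 and 72 to 64 bases. The printed length was set per gene, at 130 bases for Ifit1, Isg15, Il6 and Cxcl3, 200 for Gbp5 and 230 for Cxcl10. Matches further from the start are not shown, so the genes cannot be compared by the matches they lack. Of all 32851 windows in the promoter table (250 bases before to 50 after the start), 8.56% hold the first motif and 1.25% the second. Of the 864 higher genes 78.0% have a window in that table (80.6% of all genes tested), under the minimum of 80% set for comparing motif shares, so none is compared.

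All 6 genes had a p65 peak within 1 kb of the start in each of the 4 lists made after 1 hr of KLA. The peak heights are the authors' own values in tags per 10 M, for the first C57BL6/J, first BALBc/J, second C57BL6/J and second BALBc/J library. They were 808.6, 818.2, 1132.4 and 880.0 at Cxcl10 and 804.5, 524.1, 926.3 and 558.5 at Gbp5. Isg15 had 351.4, 208.1, 364.0 and 262.7, and Il6 137.1, 115.0, 118.4 and 84.6. The lowest peaks were those of Ifit1, at 120.4, 104.0, 108.2 and 67.7, and Cxcl3, at 99.5, 74.0, 110.6 and 76.6. Peaks at Cxcl10 were higher than at Il6 in all 4 lists, beside RNA changes of 7.19 and 6.41. Peaks at Ifit1 were lower than at Il6 in all 4 lists, beside a larger RNA change of 7.35. Peak height and RNA change thus did not rank these genes alike. Cxcl10 and Il6 also had an H3K27Ac region within 2 kb after KLA, and none without, in both strains.

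Over all genes called higher, 474 (54.9%) had a p65 peak within 1 kb in all 4 lists, beside 38.1% of all genes tested and 34.4% of the lower genes. With a peak in any list the shares were 75.6% of higher, 72.6% of all and 69.1% of lower genes, and within 20 kb in all 4 lists 91.3, 78.0 and 81.4%, so the place of the lower genes turned. H3K27Ac within 2 kb was gained in both strains at 6.94% of the higher genes, beside 0.933% of all genes tested, and lost in both strains at 2.87% of the lower genes, beside 1.25%. The starting points differed, since without KLA both strains had a region at 71.3% of higher, 84.2% of all and 87.2% of lower genes. After KLA both had one at 83.9, 83.0 and 79.2%. These lists come from other libraries at 1 hr of KLA, so each share describes what the genes called at 4 hr have in common in another readout.

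The increases ranked 11 to 30 lay between 5.90 and 7.07, with adjusted p from 3.65e-07 to 1.06e-04 by limma. Il1b, the secreted fever cytokine that needs caspase cleavage, had 225 and 248 tags without treatment and 38263 and 28580 tags after 4 hr, a change of 7.07 ± 0.24. Il27, the chain that pairs with EBI3 in interleukin 27, had 12.5 and 11.4 tags without treatment and 2087 and 1120 tags after 4 hr, a change of 6.13 ± 0.26. In both genes the treated libraries stood far above the untreated ones and did not overlap them. Edn1, the vasoconstrictor peptide endothelin, had 45.6 and 50.9 tags without treatment and 5532 and 5537 tags after 4 hr (6.57 ± 0.23). Cd40, the receptor for T cell help, had 96.2 and 75.3 tags without treatment and 10953 and 7039 tags after 4 hr (6.53 ± 0.26). Clec4e, the receptor Mincle for mycobacterial cord factor, had 250.1 and 366 tags without treatment and 18544 and 18845 tags after 4 hr (5.90 ± 0.18). In all 3 both treated libraries lay above both untreated ones. 

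Nos2, the inducible nitric oxide synthase, had 5.79 and 4.75 tags without treatment and 889 and 1752 tags after 4 hr (6.37 ± 0.27). Isg15, a ubiquitin-like protein that is joined to other proteins, had 64.1 and 55.9 tags without treatment and 5087 and 3475 tags after 4 hr (5.91 ± 0.37), and Ifit3, of a family that binds viral RNA, had 15.8 and 15.9 tags without treatment and 2026 and 1342 tags after 4 hr (6.01 ± 0.27). In each of these 3 both treated libraries were above both untreated ones. The remaining members of ranks 11 to 30 were Mx2 (6.83), Ccl4 (6.59), Rnd1 (6.50), Il6 (6.41), Cxcl3 (6.41), Gm12250 (6.36), Ifi205 (6.21), Fam26f (6.17), Gbp3 (6.01), Oasl1 (5.96), AW112010 (5.96) and Il1a (5.96). Mx2 and Oasl1 act against viruses, Ccl4 and Cxcl3 attract leukocytes, and Rnd1 is a small GTPase that loosens the actin skeleton; Ifi205, Gbp3 and Gm12250 belong to families of close relatives whose tags cannot be fully told apart. 

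The decreases ranked 11 to 30 lay between -3.93 and -3.54, with adjusted p from 2.45e-06 to 0.0052 by limma. Arrdc3, an arrestin-like adaptor that sends receptors to degradation, had 1307 and 988 tags without treatment and 66.5 and 69.9 tags after 4 hr (-3.88 ± 0.34). Tsc22d3, the glucocorticoid-induced leucine zipper, had 775 and 737 tags without treatment and 43.7 and 42.99 tags after 4 hr (-3.84 ± 0.19). Lpin1, a phosphatidate phosphatase of fat synthesis, had 424 and 143 tags without treatment and 7.39 and 8.83 tags after 4 hr (-3.83 ± 0.38). Treated and untreated libraries did not overlap in any of the 3. Vegfa, the growth factor of blood vessels, had 1934 and 1336 tags without treatment and 95.3 and 121 tags after 4 hr (-3.79 ± 0.28). Mknk2, a kinase that phosphorylates the cap-binding protein eIF4E, had 2568 and 3257 tags without treatment and 149 and 296 tags after 4 hr (-3.72 ± 0.20). Gpr183, a receptor for oxysterols that guides immune cells, had 138 and 951 tags without treatment and 16.1 and 29.02 tags after 4 hr (-3.56 ± 0.42). Both treated libraries were again below both untreated ones. The other genes of these ranks were Zfp395 (-3.93), Lyl1 (-3.89), Fam83f (-3.89), Ypel2 (-3.82), Arhgap19 (-3.75), Aatk (-3.73), Cd300lb (-3.73), Klhl21 (-3.72), 6430548M08Rik (-3.70), Mtss1 (-3.70), Arl11 (-3.68), BC031353 (-3.61), 5430435G22Rik (-3.58) and Arhgef10l (-3.54). 

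**Figure D3:**
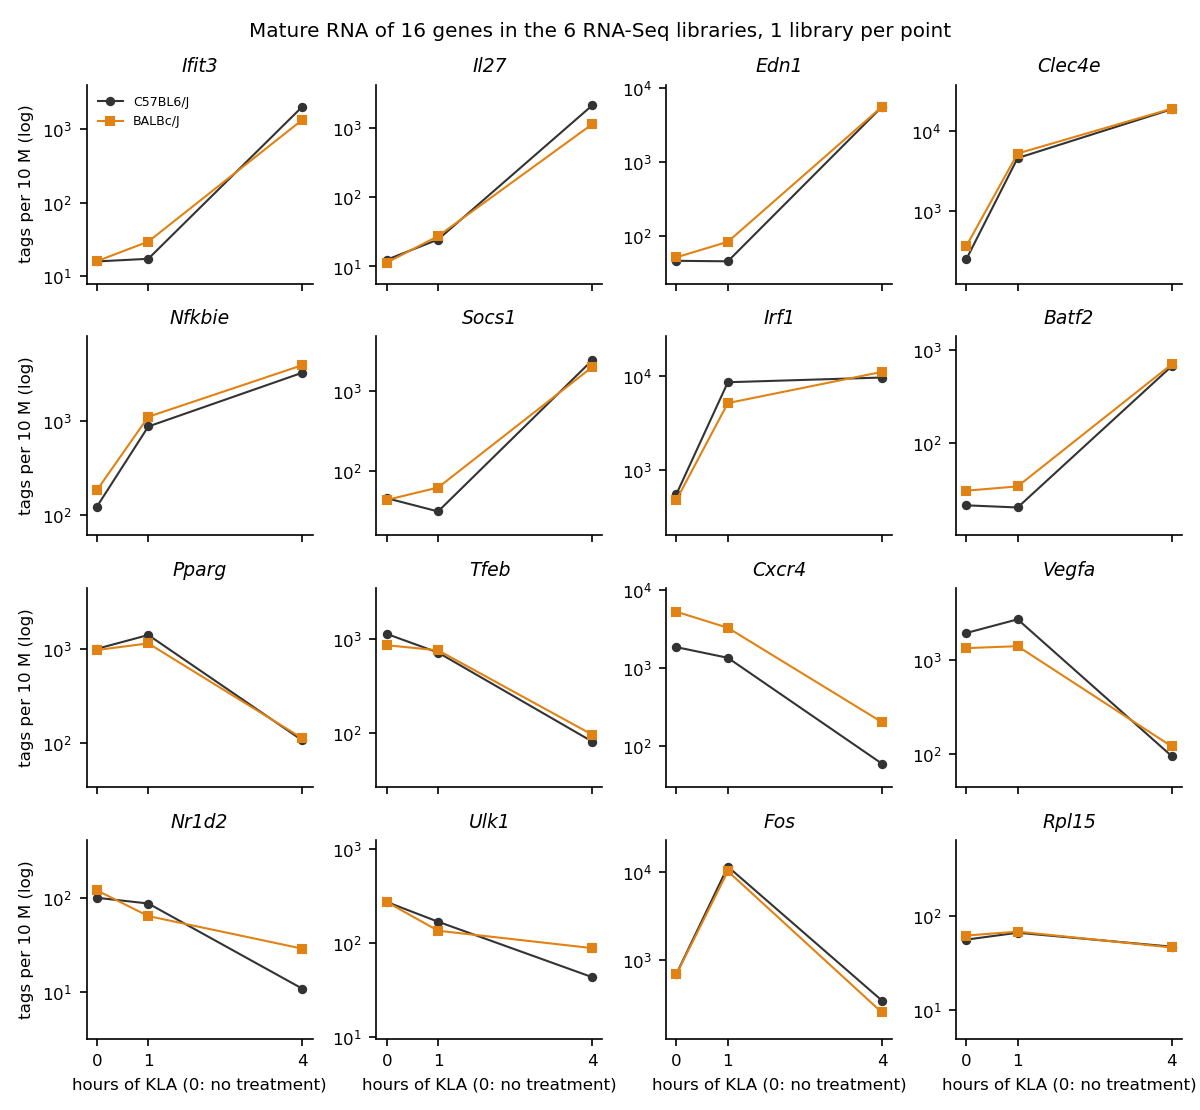
Tags per 10 M tags (log axis) of 16 genes in the 6 RNA-Seq libraries, by time of KLA, with 1 point per strain and time. Cytokine and antiviral genes climb between 1 and 4 hr, Fos peaks at 1 hr, Pparg, Tfeb, Cxcr4, Vegfa, Nr1d2 and Ulk1 fall, and Rpl15, a ribosomal protein gene that was not called, is shown for reference.

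At the top of the pathway most genes were not called. Tlr4 itself had 1001 and 1547 tags without treatment and 448 and 526 tags after 4 hr and fell by 1.34 ± 0.20, a call that is lost relative to the median gene (-0.91). Cd14, which hands lipid A to the receptor, had 1939 and 3890.5 tags without treatment and 17974 and 22483 tags after 4 hr (2.87 ± 0.20), and Myd88 had 553 and 587 tags without treatment and 3501 and 2904 tags after 4 hr (2.46 ± 0.18). The receptor RNA thus fell while RNA of its co-receptor and adaptor rose in both strains. Irak3, a kinase-like brake on MyD88 signalling, rose by 1.81 ± 0.18, whereas Ly96, the gene of MD-2, measured 0.14 ± 0.19 and was not called. Of 23 tested genes of the complex 5 rose and 2 fell (9 and 0 relative to the median gene), with a median of 0.33. 

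Among other receptors for microbial patterns, 12 of 20 rose and 2 fell (14 and 1 relative to the median gene), with a median of 1.34. Tlr2, which reads bacterial lipoproteins, had 357 and 392 tags without treatment and 15253 and 14156 tags after 4 hr (5.26 ± 0.18). Also called higher were the formyl peptide receptors Fpr2 (4.59) and Fpr1 (3.64), the peptidoglycan sensors Nod2 (3.67) and Nod1 (2.49) and the double-stranded RNA receptor Tlr3 (3.04). Tlr13, which reads bacterial ribosomal RNA, had 5634 and 5767 tags without treatment and 1153 and 782 tags after 4 hr and fell by 2.57 ± 0.19. Cytosolic sensors of nucleic acids rose in 12 of 14 cases with 0 lower and a median of 3.09. The RNA helicase Ifih1 (MDA5) had 353 and 421 tags without treatment and 12075 and 18482 tags after 4 hr (5.24 ± 0.18), and Ddx58 (4.06), Zbp1 (4.77) and Eif2ak2 (3.32), the genes of RIG-I, a Z-nucleic acid sensor and PKR, were called as well. Their signalling partners Mavs (-0.65) and Tmem173 (0.60), the gene of STING, were not called. Inflammasome genes split, with 7 of 17 higher and 3 lower. Nlrp3 (3.45), Mefv (3.60), Casp4 (3.28), Il18 (1.66) and Casp1 (1.60) rose, and Nlrx1 (-2.06) and Naip1 (-1.55) fell. 

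Several inhibitors of the cascade rose. Socs1, which blocks JAK kinases, had 45.4 and 43.2 tags without treatment and 2458 and 2019.9 tags after 4 hr (5.37 ± 0.27), and Socs3 had 309 and 326 tags without treatment and 12471 and 14831 tags after 4 hr (5.38 ± 0.18). Cish, another member of that family, rose by 5.00 ± 0.24. In contrast Inpp5d, the lipid phosphatase SHIP1, had 1169 and 1182 tags without treatment and 118 and 143 tags after 4 hr and fell by 3.08 ± 0.19. Over these kinase brakes 6 of 23 were higher and 3 lower, with a median of 0.08. The MAP kinase phosphatases had 2 of 14 higher (4, with 3 lower, relative to the median gene), Dusp8 (-2.25), Dusp3 (-1.61) and Dusp10 (-1.50) lower and a median of -0.29, against 6 higher and 0 lower at 1 hr. Dusp1, which dephosphorylates p38 and JNK, stood at 1502 and 1282 tags without treatment, 41464 and 36182 tags after 1 hr, and 1181 and 790.1 tags after 4 hr. Its 1 hr rise was gone by 4 hr, when its change was -0.52 and not called. 

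Among factors that destroy inflammatory mRNAs, the shares called were near or above those of all genes. Zc3h12a, the endonuclease Regnase-1, had 382 and 330.2 tags without treatment and 3385 and 3002 tags after 4 hr (3.13 ± 0.19), and Zfp36, the protein tristetraprolin that binds AU-rich tails, had 2150.5 and 2103 tags without treatment and 7716 and 7838 tags after 4 hr (1.87 ± 0.16). The relatives of Zfp36 went the other way, Zfp36l2 (-1.62) and Zfp36l1 (-1.43), and the deadenylation factors Tob1 (-2.66) and Pan2 (-2.24) fell as well. Once centred on the median gene, Zfp36l1 lost its call (-0.99), while Tob1 and Pan2 kept theirs. The list held 5 higher and 6 lower genes of 29 (5 and 3 relative to the median gene), which is 17.2 and 20.7% beside 8.06 and 21.1% of all genes. 

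Transcription factors of the NF-kB family and their inhibitors rose as a group, 15 of 20 with 0 lower and a median of 2.18. Nfkbie, an inhibitor that holds NF-kB in the cytoplasm, had 123 and 185 tags without treatment, 876 and 1110.3 tags after 1 hr, and 3264 and 3926 tags after 4 hr (4.48 ± 0.17 at 4 hr). Nfkbiz, a nuclear co-activator needed for Il6, had 148 and 164 tags without treatment and 3470.4 and 3028 tags after 4 hr (4.29 ± 0.17), and Nfkb2 had 425 and 435 tags without treatment and 6445 and 6109 tags after 4 hr (3.84 ± 0.19). At 1 hr 10 genes of this list were higher. 

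AP-1 and other early factors looked different. At 1 hr 12 of 25 were higher and 0 lower, while at 4 hr 6 were higher and 6 lower (8 and 5 relative to the median gene). Fos, the partner of JUN in AP-1, had 701 and 694 tags without treatment, 11428 and 10144 tags after 1 hr, and 349 and 256 tags after 4 hr, so the 4 hr change was -1.20 ± 0.18, which loses its call relative to the median gene (-0.76). Nr4a1, an orphan nuclear receptor, had 179.6 and 248 tags without treatment, 2869 and 3819 tags after 1 hr, and 35.7 and 19.9 tags after 4 hr (-2.58 ± 0.27). Egr1 had 211 and 239 tags without treatment, 14122 and 10066 tags after 1 hr, and 189 and 226 tags after 4 hr, was not called at 4 hr (-0.11) and stood at 0.32 relative to the median gene. In these 3 the 1 hr libraries were the highest, and the 4 hr libraries were back near or below the untreated ones. Batf2 and Batf, which pair with JUN at interferon and cytokine genes, rose by 4.29 ± 0.20 and 2.58 ± 0.23. Against 1 hr, Fos fell to 4 hr by a change of -5.13 ± 0.18 and Egr1 by -5.78 ± 0.22. 

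In the list of IRF and STAT factors 10 of 22 genes rose, with a median of 0.87 and 1 higher at 1 hr. The 1 lower gene was Ifngr1, a receptor gene kept in this list and not itself such a factor. Irf1 had 558 and 484 tags without treatment, 8584 and 5158 tags after 1 hr, and 9634 and 11055 tags after 4 hr (4.29 ± 0.23). Irf7, the factor that amplifies interferon production, had 242 and 635 tags without treatment, 184 and 570.5 tags after 1 hr, and 6967 and 7786 tags after 4 hr (4.19 ± 0.32). Irf1 was high by 1 hr, and Irf7 only at 4 hr. Stat2 and Irf9, which work together in the interferon-activated complex, rose by 3.78 ± 0.17 and 2.08 ± 0.18. Irf3 (-0.81), which is activated as a protein and starts interferon beta, was not called. Ifngr1, the receptor chain for interferon gamma, had 2415 and 2560.1 tags without treatment and 536 and 402 tags after 4 hr and fell by 2.40 ± 0.18. 

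Of the factors that shape macrophages, 14 of 38 fell and 5 rose (10 and 8 relative to the median gene), with a median of -0.56. Tfeb, the master regulator of lysosome genes, had 1130.2 and 857 tags without treatment and 81.4 and 96.3 tags after 4 hr (-3.33 ± 0.21), and Pparg, a nuclear receptor for fatty acids, had 1006 and 977 tags without treatment and 107 and 113 tags after 4 hr (-3.06 ± 0.18). Neither overlapped between groups. Mef2d (-2.28 ± 0.26) and Rxra (-2.34 ± 0.18) fell as well. Those that rose were Etv6 (1.59), Hif1a (1.59) and Tfec (1.50) with 2 others, Hif1a being the oxygen-regulated factor of glycolysis. The antagonists of the MYC factor, Mnt (-4.14), Mxd4 (-2.53) and Mxi1 (-1.99), fell, and Mycl1 rose by 2.90 ± 0.20. 

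Clock genes fell without exception among those called, 12 of 18 lower and 0 higher, against 21.1% of all genes; relative to the median gene 6 were lower and 0 higher. Per1 was among the 10 largest decreases of all genes. Dbp, an output factor of the clock, had 115 and 124 tags without treatment and 11.4 and 12.8 tags after 4 hr (-2.55 ± 0.19), Tef had 477 and 501 tags without treatment and 52.02 and 99.9 tags after 4 hr (-2.59 ± 0.23), and the repressor Nr1d2 had 100.1 and 120.0 tags without treatment and 10.8 and 28.8 tags after 4 hr (-2.07 ± 0.29). In these 3 the treated and untreated libraries did not overlap. The other 6 genes of the list were not called. 

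Targets and members of the FoxO family, which are active when insulin signalling is low, fell in 15 of 28 cases with 1 higher (12 and 5 relative to the median gene) and a median of -1.21. Irs2, the insulin receptor substrate, had 179 and 194 tags without treatment and 6.50 and 14.9 tags after 4 hr (-3.28 ± 0.24). Foxo3 itself had 329.7 and 253 tags without treatment and 17.1 and 32.7 tags after 4 hr (-3.14 ± 0.27), and Foxo4 fell by 2.56 ± 0.23. The exception was Arrdc4, a relative of Arrdc3, at 1.24 ± 0.18. For these genes and for clock genes, treatment and time in fresh medium cannot be told apart, since the labels give that time for treated cells alone. 

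Secreted cytokines rose in most members, with 15 of 20 interleukins and interferons higher, 1 lower and a median of 2.47; at 1 hr 10 were already higher. Il12b, the shared chain of interleukins 12 and 23, had 3.20 and 2.62 tags without treatment, 19.5 and 18.3 tags after 1 hr, and 902 and 419.6 tags after 4 hr (5.60 ± 0.28), and Il12a, its partner in interleukin 12, had 0.62 and 2.91 tags without treatment and 748 and 392 tags after 4 hr (5.56 ± 0.28). Il15, which sustains NK and memory T cells, had 113 and 112 tags without treatment and 3459 and 2122 tags after 4 hr (4.47 ± 0.22). Il10, the anti-inflammatory cytokine, had 3.67 and 6.69 tags without treatment and 198 and 182 tags after 4 hr (3.73 ± 0.22) and the receptor antagonist Il1rn 3187 and 7872 tags without treatment and 26386 and 40909 tags after 4 hr (2.71 ± 0.19). Pro- and anti-inflammatory cytokines were thus both high in both treated libraries. Il16 fell, from 109 and 97.5 to 14.2 and 17.8 tags (-2.12 ± 0.20). 

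Chemokines rose in 18 of 24 cases with 0 lower and a median of 4.23, and 11 were higher at 1 hr. Ccl3, a chemokine that attracts monocytes and T cells, had 341 and 446 tags without treatment, 6556 and 10318 tags after 1 hr, and 26688 and 20985 tags after 4 hr (5.89 ± 0.24). Cxcl9, a ligand of CXCR3, had 5.65 and 2.29 tags without treatment, 15.9 and 3.62 tags after 1 hr, and 264 and 296 tags after 4 hr (4.38 ± 0.27). Ccl3 was high by 1 hr and Cxcl9 only later. The neutrophil attractants Cxcl2 (4.74) and Cxcl1 (4.35) and the monocyte attractants Ccl7 (4.84) and Ccl2 (4.52) rose too. In the TNF family 9 of 20 genes rose and 3 fell, with Tnfsf10 (5.33), Tnfsf4 (4.20) and Tnfsf9 (4.13) among the ligands and Tnfrsf21, a death receptor, lower (-2.56 ± 0.19). Growth factors had 7 higher and 7 lower of 24, or 9 and 4 relative to the median gene. Inhba, the activin A subunit, had 7.44 and 13.02 tags without treatment and 199.6 and 454 tags after 4 hr (3.96 ± 0.23), and Pdgfa fell by 2.21 ± 0.25. 

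Receptors for attractants and metabolites went both ways. Of chemoattractant receptors 5 of 15 rose and 6 fell (5 and 3 relative to the median gene). Ccr2, the receptor that brings monocytes into tissue, had 154 and 318 tags without treatment and 20.3 and 23.1 tags after 4 hr (-2.87 ± 0.24), and Ccr7, the receptor for homing to lymph nodes, had 15.1 and 23.6 tags without treatment and 62.7 and 109 tags after 4 hr (1.68 ± 0.21). Of receptors for nucleotides, lipids and metabolites with their RGS regulators 9 of 36 rose and 15 fell (11 and 12 relative to the median gene). Gpr84, which binds medium-chain fatty acids, had 9.14 and 13.8 tags without treatment and 1224 and 789 tags after 4 hr (5.54 ± 0.25), and Niacr1, which binds niacin and hydroxybutyrate, had 15.98 and 24.8 tags without treatment and 1093 and 2181 tags after 4 hr (5.69 ± 0.32). The adenosine receptors Adora2a (4.60) and Adora2b (3.02) rose, and the lysophosphatidic acid receptors Lpar6 (-3.36) and Lpar5 (-3.15) and the nucleotide receptor P2ry1 (-3.15) fell. Cytokine receptors had 6 of 24 higher and 3 lower, with Il15ra, which presents interleukin 15, at 29.1 and 32.97 tags without treatment and 1818 and 1708 tags after 4 hr (5.43 ± 0.19) and Il6ra at 475 and 480.4 tags without treatment and 40.8 and 67.4 tags after 4 hr (-2.96 ± 0.22). Ligand and presenting receptor of interleukin 15 therefore rose together, and Il6 and its receptor went in opposite directions. 

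**Figure D4:**
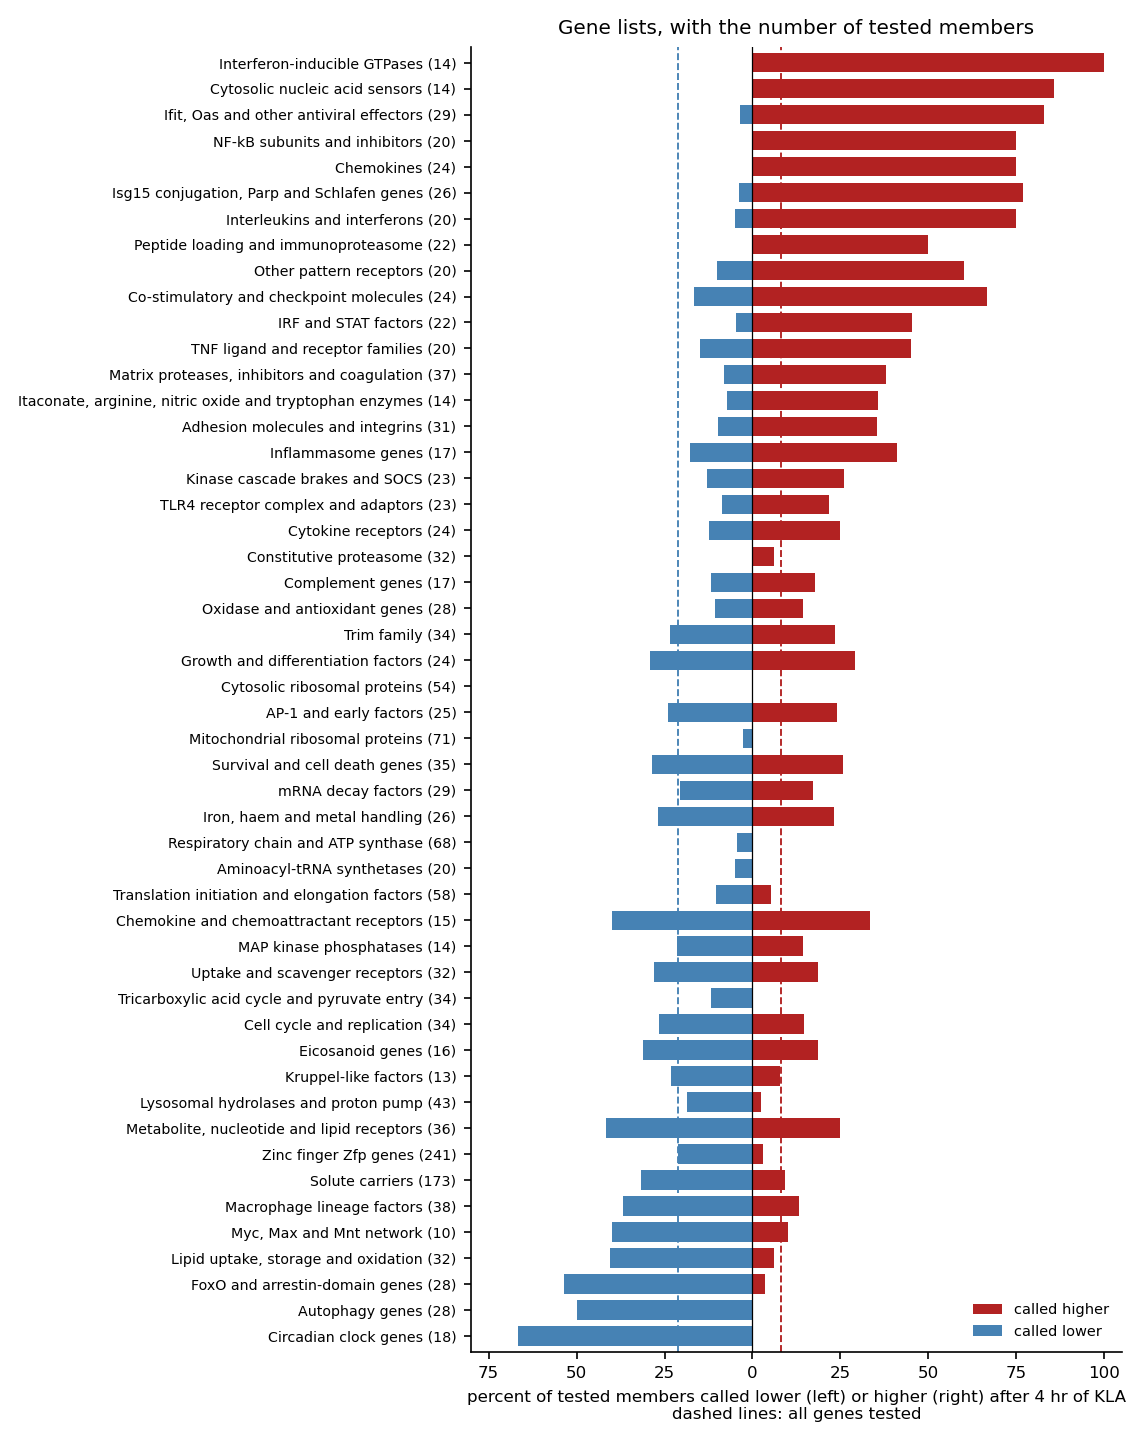
Percent of the tested members of each gene list called higher (bars to the right) and lower (bars to the left) after 4 hr of KLA; dashed lines mark the 8.06% higher and 21.1% lower of all genes tested. Interferon-inducible GTPases reach 14 of 14 higher, and clock genes 12 of 18 lower.

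Antiviral genes rose in most of their members. Of 20 interferon-inducible GTPases listed 14 were tested, and all 14 rose, with a median of 4.96, and 1 of them was higher at 1 hr. Members that entered only through the 4 hr libraries, such as Iigp1, could not have been called lower. Gbp1 depended on 1 library, since without the treated BALBc/J library its change was 0.48 with an adjusted p of 0.0594 by limma. Irgm1, which defends vacuoles against bacteria, had 649.7 and 749 tags without treatment, 655 and 664 tags after 1 hr, and 13516 and 15425 tags after 4 hr (4.35 ± 0.16), and Iigp1 had 13.3 and 18.1 tags without treatment, 17.7 and 10.7 tags after 1 hr, and 685 and 1113 tags after 4 hr (5.11 ± 0.27). Of the Ifit, Oas and related effectors 24 of 29 rose, 1 fell and 0 were higher at 1 hr, with a median of 3.30. Rtp4 had 119 and 191 tags without treatment, 209 and 335 tags after 1 hr, and 6516 and 5714 tags after 4 hr (5.25 ± 0.24) and Oas2, a synthetase switched on by double-stranded RNA, had 54.9 and 76.98 tags without treatment, 37.4 and 54.1 tags after 1 hr, and 682 and 1499 tags after 4 hr (3.77 ± 0.23). In none of these 4 was a 1 hr change called. In the conjugation and Schlafen list 20 of 26 rose and 1 fell, with Usp18 (5.51), Slfn1 (5.88), Slfn4 (4.98) and Parp14 (4.55) higher and Parp1, the DNA repair enzyme, lower (-1.91 ± 0.18). 

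Neighbouring genes called higher lay in runs, given here on the mm9 coordinates of the table with members of the antiviral families. The longest held 10 genes in a row on chr1:175350734-175961886, from Aim2 to Ifi205. Others were 6 genes from Irgm1 to Ifi47 on chr11:48678750-48948889, 5 Ifit genes and relatives on chr19:34625183-34724499 with changes from 5.00 to 7.35, 5 Gbp genes on chr3:142159897-142300972, and 4 Slfn genes on chr11:82878613-83028656. On chr17:34319043-34353266 the run Psmb9, Tap1, Psmb8 and Tap2 carries peptide loading genes. Families in such runs arose by duplication, and tags shared between relatives can link their values.

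Peptide loading and immunoproteasome genes rose in 11 of 22 cases with 0 lower and a median of 1.03. Tap1, the peptide transporter, had 572 and 462 tags without treatment and 7318 and 6999 tags after 4 hr (3.77 ± 0.17), and Psmb9 had 239 and 289 tags without treatment and 1558 and 1368 tags after 4 hr (2.43 ± 0.19). Class II presentation had 1 of 9 higher and 0 lower. Co-stimulatory and checkpoint molecules rose in 16 of 24 cases and fell in 4, with a median of 1.92. Cd274, the checkpoint ligand PD-L1, had 2618 and 2542 tags without treatment and 18652 and 24710 tags after 4 hr (3.05 ± 0.27), and Cd86, the ligand of CD28, had 119.5 and 129 tags without treatment and 706 and 862 tags after 4 hr (2.56 ± 0.19). Havcr2, the receptor TIM-3, had 259 and 320.4 tags without treatment and 38.5 and 72.4 tags after 4 hr (-2.24 ± 0.21). 

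Genes of adhesion, matrix and coagulation changed next to these receptors. Adhesion molecules had 11 of 31 higher and 3 lower, with Icam1 at 379.8 and 481 tags without treatment and 23165 and 18677 tags after 4 hr (5.57 ± 0.24) and Vcam1 at 53.9 and 81.2 tags without treatment and 2445 and 2099.5 tags after 4 hr (4.90 ± 0.23). Both are ligands of leukocyte integrins. Matrix, protease and coagulation genes had 14 of 37 higher and 3 lower, with a median of 0.39. F3, the tissue factor that starts coagulation, had 71.2 and 81.1 tags without treatment and 573 and 502 tags after 4 hr (2.67 ± 0.19), and Thbd, thrombomodulin, which restrains it, had 446 and 414 tags without treatment and 52.02 and 47.3 tags after 4 hr (-2.88 ± 0.20). The starter of coagulation rose and its restraint fell in both strains. Uptake receptors had 6 of 32 higher and 9 lower (10 and 3 relative to the median gene), led by Olr1 (5.68) and Cd300a (-2.36). In the complement list 3 of 17 rose and 2 fell (5 and 0 relative to the median gene), with Cfb, factor B of the alternative pathway, at 76.01 and 216 tags without treatment and 2549.5 and 4773 tags after 4 hr (4.65 ± 0.20). 

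Metabolic genes changed at selected steps. Slc7a2, an arginine importer, had 107 and 262 tags without treatment and 7031 and 6070.1 tags after 4 hr (5.20 ± 0.30), Ch25h, which makes an antiviral oxysterol, had 21.6 and 18.1 tags without treatment and 645 and 805 tags after 4 hr (4.62 ± 0.23), and Gch1, which makes the cofactor of nitric oxide synthase, had 345 and 686 tags without treatment and 2184 and 2906 tags after 4 hr (2.35 ± 0.21). Treated and untreated libraries of these 3 did not overlap. Ptgs2, the inducible cyclooxygenase, had 73.7 and 149.5 tags without treatment and 4427 and 6893 tags after 4 hr (5.58 ± 0.18) and Ptges, which follows it on the way to prostaglandin E, had 69.8 and 66.02 tags without treatment and 635 and 1174 tags after 4 hr (3.49 ± 0.26). Lta4h, an enzyme of the leukotriene path, fell by 1.73 ± 0.21. Of 16 eicosanoid genes 3 rose and 5 fell (3 and 3 relative to the median gene). Sod2, the mitochondrial superoxide dismutase, rose by 3.65 ± 0.18 and Gclc, an enzyme of glutathione synthesis, fell (-1.90 ± 0.20). They are the extremes of 28 oxidase and antioxidant genes, of which 4 rose, 3 fell and 21 were not called (5 higher and 2 lower relative to the median gene). Of 14 itaconate, arginine, nitric oxide and tryptophan enzymes 5 rose and 1 fell (6 and 0 relative to the median gene). 

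Genes of the tricarboxylic acid cycle and pyruvate entry had 0 of 34 higher and 4 lower (0 and 3 relative to the median gene). Their lower share of 11.8% was under the 21.1% of all genes. The largest fall was that of Idh1, at 5022 and 5426 tags without treatment and 779.6 and 709.5 tags after 4 hr (-2.79 ± 0.17). Idh1 is the cytosolic isocitrate dehydrogenase and not the mitochondrial enzyme of the cycle. In iron handling 6 of 26 rose and 7 fell (8 and 2 relative to the median gene). Slc40a1, the iron exporter ferroportin, had 137 and 144 tags without treatment and 4.60 and 11.3 tags after 4 hr (-3.09 ± 0.22), Lcn2, which binds bacterial iron carriers, had 6.02 and 7.19 tags without treatment and 584 and 306 tags after 4 hr (4.71 ± 0.26), and Mt2, a metallothionein, had 79.1 and 213 tags without treatment and 1341 and 1769 tags after 4 hr (3.46 ± 0.24). RNA of the exporter was lower in both treated libraries, and RNA of Lcn2 and Mt2 higher. Fth1, the heavy chain of the iron store ferritin, was not called (0.06). Lipid genes fell in 13 of 32 cases and rose in 2 (9 and 2 relative to the median gene), including Abcg1 (-2.16), Nceh1 (-2.17), Fabp4 (-2.02) and Scd2 (-1.94) for cholesterol export, ester hydrolysis, fatty acid binding and desaturation. 

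Lysosomal genes fell about as often as all genes, and autophagy genes fell in a larger share. Of 43 lysosomal hydrolases and pump subunits 8 fell and 1 rose, a lower share of falls (18.6%) than the 21.1% of all genes, and 3 and 2 did so relative to the median gene. Of 28 autophagy genes 14 fell and 0 rose, with a median of -1.03 (8 and 0 relative to the median gene). Ulk1, the kinase that starts autophagy, had 271 and 271 tags without treatment and 43.2 and 87.8 tags after 4 hr (-1.96 ± 0.28), and Nbr1, a cargo receptor, had 977 and 978 tags without treatment and 165 and 289 tags after 4 hr (-2.11 ± 0.24). Both strains showed these falls. 

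Survival and cell cycle genes went both ways. Survival genes had 9 of 35 higher and 10 lower, or 11 and 8 relative to the median gene, beside 8.06 and 21.1% of all genes. They included Cflar (3.42), Ripk2 (3.42) and Mlkl (3.06) higher and Gadd45a (-3.33), Bmf (-2.87) and Casp9 (-2.26) lower. Cflar restrains caspase-8, and Bmf and Casp9 promote mitochondrial death. Of 34 cell cycle genes 5 rose and 9 fell (26.5%, near the 21.1% of all genes). Centred on the median gene, 6 were higher and 5 lower. They included Ccnd2, a D-type cyclin, at 25.5 and 29.9 tags without treatment and 2004 and 1829 tags after 4 hr (5.68 ± 0.19), Cdkn1a, the inhibitor p21, at 2.45 ± 0.27 and Rb1 at -2.15 ± 0.25. A cyclin and an inhibitor of cyclin kinases rose together. 

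Most housekeeping genes were not called. Of 90 cytosolic ribosomal proteins 54 were tested, 0 rose and 0 fell, with a median of -0.28 near the -0.47 of all genes. The other 36 did not reach the filter, and 28 reached 50 tags in at least 2 libraries. Many of these levels were thus low, where the pseudocount shrinks changes, so the absence of calls is weak evidence of stable levels. Mitochondrial ribosomal proteins had 2 of 71 lower, the respiratory chain 3 of 68 and the aminoacyl-tRNA synthetases 1 of 20, with 0 higher in each. Relative to the median gene these lists had 0 lower each, and 1, 0 and 3 higher. Zinc finger genes had 7 of 241 higher and 51 lower at 4 hr (11 and 13 relative to the median gene), the lower share of 21.2% being that of all genes. At 1 hr 2 were higher and 42 lower, beside 1.82 and 1.45% of all genes. Of 68 clustered histone genes only 7 were tested, and the others did not reach the filter. Of these 7, 6 were lower (4 relative to the median gene), led by Hist1h1c (-2.41) and Hist2h3c1 (-2.17). This count therefore describes a small part of the list and not clustered histone genes as a group. Solute carriers had 16 higher and 55 lower of 173, or 22 and 18 relative to the median gene. Of 11 common reference genes tested 1 rose and 1 fell (2 and 1 relative to the median gene). The higher one was Actb, the gene of beta-actin (1.22). The lower one was Polr2a, the largest subunit of RNA polymerase II, with 1640.3 and 1469.6 tags without treatment and 178 and 459 tags after 4 hr (-2.39 ± 0.44). Neat1, a long nuclear RNA singled out after its values were seen, had 30038 and 27811 tags without treatment and 4299 and 7607 tags after 4 hr (-2.34 ± 0.22).

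Falls were more frequent among long mRNAs. Genes were split by mRNA length into 5 equal bins. From the shortest bin (59 to 1619 bases) to the longest (4641 to 110234 bases) the share called lower went 12.9, 19.2, 21.6, 24.3 and 27.5%, and the share called higher stayed between 7.09 and 8.54%. Relative to the median gene the lower share still went from 4.43 to 14.3%. The median mRNA length was 3271 bases in lower, 2852 in higher and 2842 in all tested genes, and the part of length in the results was not tested.

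The 4 hr levels were also set against those after 1 hr, a contrast with no untreated library in it. Here 923 genes (8.61%) were higher and 1435 (13.4%) lower at 4 hr, or 1169 (10.9%) and 957 (8.93%) relative to the median gene, so the excess of lower genes again turned into an excess of higher ones. The response at 1 hr itself comprised 195 genes higher (1.82%) and 155 lower (1.45%) than untreated, or 242 (2.26%) and 77 (0.719%) relative to the median gene. It shares the untreated libraries with the 4 hr comparison, so values are set side by side and no overlap is given. Chemokines had 11 higher at 1 hr and 18 at 4 hr, interleukins 10 and 15, NF-kB genes 10 and 15, IRF and STAT genes 1 and 10, and Ifit and Oas genes 0 and 24. Cxcl2 had 267 and 297 tags without treatment, 53425 and 55923 tags after 1 hr, and 10462 and 5823 tags after 4 hr, which makes it high at both times, with -2.81 ± 0.25 from 1 to 4 hr. Rsad2, the antiviral enzyme viperin, had 1364 and 1510.4 tags without treatment, 1936 and 3685 tags after 1 hr, and 176850 and 232280 tags after 4 hr and 6.24 ± 0.20 from 1 to 4 hr. Dbp had 115 and 124 tags without treatment, 91.8 and 95.4 tags after 1 hr, and 11.4 and 12.8 tags after 4 hr (-2.23 ± 0.19).

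Nascent RNA in separate GRO-Seq libraries, 1 per strain untreated and after 1 hr of KLA, was called higher for 391 (4.29%) and lower for 1413 (15.5%) of 9121 genes. GRO-Seq records RNA still being made by the polymerase, and its adjusted p-values rest on a spread pooled over genes. Of the 864 genes higher in mature RNA at 4 hr, 648 were tested there and 268 (41.4%) were higher, beside 4.30% of the 8401 genes tested in both assays. They make up 74.2% of the 361 genes tested in both that were higher in nascent RNA. Of the 2262 lower genes 1839 were tested and 794 (43.2%) were lower, beside 15.2%, and make up 62.1% of the 1278 genes tested in both that were lower in nascent RNA. Opposite calls were rare, 17 of 648 (2.62%) and 5 of 1839 (0.272%). The median nascent change was 0.67 for higher genes, -0.90 for lower genes and -0.26 for the 5914 genes not called. Centred on the median gene of GRO-Seq, 619 genes (6.79%) were higher and 638 (6.99%) lower over all 9121. Il12b had a nascent change of 3.41, Irf1 of 2.36 and Socs3 of 4.07, and among genes that fell, Foxo3 had -1.56 and Arrdc3 -2.33.

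**Figure D5:**
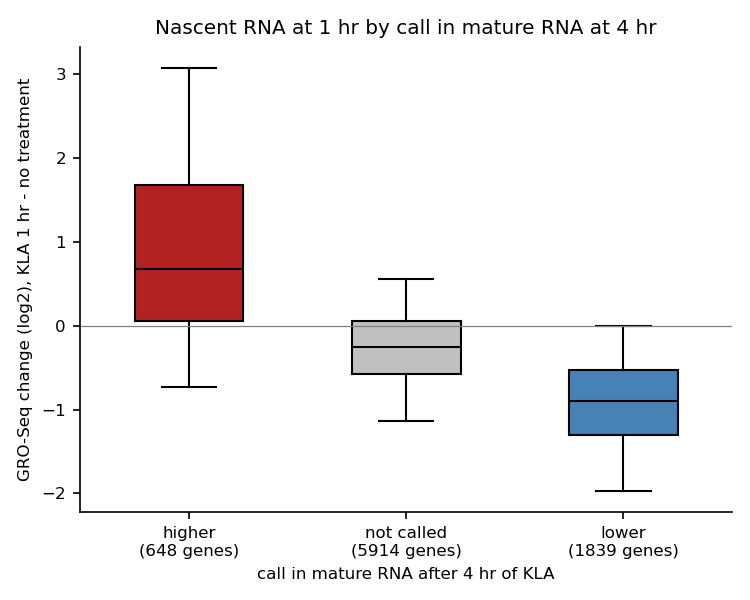
Change of nascent RNA after 1 hr of KLA (log2 scale, GRO-Seq) for genes called higher, lower and not called in mature RNA at 4 hr; boxes are quartiles with the median, whiskers the 5th to 95th percentiles. Medians are 0.67, -0.90 and -0.26 over 648, 1839 and 5914 genes.

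The size of the response differed between the strains for a few called genes, each with 1 library per strain and time and therefore without a test. Gbp1 had 14.5 and 127 tags without treatment and 18.97 and 9012 tags after 4 hr, a change of 0.24 in C57BL6/J and 6.04 in BALBc/J. Arhgap19 had 1630.2 and 113 tags without treatment and 24.3 and 22.4 tags after 4 hr (-5.58 and -1.92). Tarm1, an activating receptor of myeloid cells, had 5.20 and 3.55 tags without treatment and 997 and 88.97 tags after 4 hr (6.05 and 2.87), and Ptx3, a soluble pattern receptor, had 8.95 and 6.60 tags without treatment and 443 and 43.3 tags after 4 hr (4.58 and 1.68). These 4 were picked after their values were seen as the largest gaps, and Gbp1 has close relatives next to it.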

How the data were processed

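RNA-Seq of poly(A)-selected RNA (6 libraries) and GRO-Seq (4 libraries) came as 1 expression table. The submitters' processing notes name Bowtie 0.12.7, a short-read aligner, HOMER, a toolset for counting tags and calling peaks, and build mm9. The log2 values were deposited by the authors as the log2 of 1 plus exon tags per 10 M, per the file headers; they were turned back into tags, and each symbol was represented by 1 transcript, the one highest on average in RNA-Seq. The sources used here do not give whether counting used strand; values of overlapping genes and of close relatives (Ifi200, Gbp, Slfn, Ifit, zinc fingers) may share tags.

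RNA-Seq libraries held 17.0 to 20.3 M (mega) tags and GRO-Seq libraries 39.4 to 48.3 M, of which 7.38 to 9.83% lay in exons. limma 3.58.1 in R 4.3.3 (lmFit, eBayes with trend) was fitted to log2(tags + 10) with terms for treatment and strain, per assay, with Benjamini-Hochberg adjustment over all genes with 20 tags in at least 2 libraries. The strains act as the 2 replicates of a treatment, and fitted changes of low genes are smaller than the ratio of their tags. The procedure was also run on simulated data with changes of known size and an assumed scatter, and the outcome is not reported here. In a second reading, each library was centred on its median gene. Peak signal (tags per 10 M) is the authors' value, deposited with peaks that HOMER called in each library, per the file headers; the p65 lists of BALBc/J used the input DNA of C57BL6/J. Promoter sequences are from RefSeq (GRCm38.p6), matched by symbol, then by synonym and then by gene identifier, and were not joined to mm9 coordinates.

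Genes named are the 30 largest increases and 30 largest decreases (ranks 11 to 30 in detail), up to 6 called members with the largest change per list, and members set beside them for their role; others are said to be chosen after their values were seen. Members and lists were chosen with earlier results of these data known. A few genes covered by the rule are not reported here.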

Additional observations from a re-analysis of the deposited data

Results flagged for a closer look

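Coro2a, a coronin that binds actin, stood out because its strains moved in opposite directions. In C57BL6/J it had 678 tags per 10 M without treatment and 1550 after 4 hr of KLA, a change of 1.18 on the log2 scale, and in BALBc/J it had 808 and 350 tags, a change of -1.18. There was 1 library per strain and time, and the difference between the strains was not tested.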

How the results depend on the processing

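Scaling, the pseudocount and the size threshold moved the counts. For 4 hr against no treatment, the lower genes numbered 1023 relative to the median gene, 1276 with a pseudocount of 50 and 4790 by adjusted p alone. For 4 hr against 1 hr, adjusted p alone gave 1458 higher and 3222 lower genes, and a pseudocount of 50 gave 816 lower. GRO-Seq gave 619 higher and 638 lower genes relative to the median gene, 221 and 329 with a pseudocount of 50, and 907 lower with the stricter filter. A p65 peak within 1 kb in at least 1 list was present at 75.6% of higher and 69.1% of lower genes, beside 72.6% of all genes tested, so that the contrast nearly vanished. A peak within 20 kb in all 4 lists was present at 91.3 and 81.4%, beside 78.0%, which puts the lower genes above all genes and not below them. Leaving out 1 library at a time gave 845 to 903 higher and 2181 to 2694 lower genes at 4 hr, and 877 to 1071 higher and 1478 to 1664 lower against 1 hr, with the lone library of a treatment assumed to vary like the others. The same was not run for GRO-Seq, where it leaves no residual degrees of freedom. Of 348 called genes that the naming rule covers or the text names, 26 lost the call relative to the median gene, 27 with a pseudocount of 50, 8 without the strain term, 2 without the filter and 4 to 11 when 1 library was left out. Egr1, not called, changed sign to 0.32 relative to the median gene and ranged from -0.31 to 0.091 with 1 library left out, and Rpl15, also not called, stood at 0.15 relative to the median gene. Voom and whole tags, both chosen after seeing the data, lost none of these calls. The cause of these shifts was not tested. The fit is paired by strain through its strain term, and without that term 817 genes were higher and 2100 lower at 4 hr. By replicate number, no paired analysis was possible because the RNA-Seq libraries carry no such numbers.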
